A study of Mus musculus with 24 samples.

Results

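The comparison of vehicle liver at 4 h with vehicle liver at 1 h covers 12 of the 24 liver RNA libraries of the series, 6 mice at each time, and all genes of the count table. The libraries were chosen by their labels alone: C57BL/6 mice given an injection of the vehicle, 0.1% ethanol, whose medial liver lobe was taken 1 or 4 h later. The other 12 libraries came from mice of the same strain given 5 mg/kg MitoCDNB, a mitochondria-targeted derivative of chlorodinitrobenzene, and sampled at the same times, with 6 per time. The labels name no transgene or deletion, and all 24 mice had been injected. An uninjected group was not analysed here, so the comparison is between times after a vehicle injection. The labels used here do not give sex, age, feeding state, route of injection or the clock time of injection and sampling. Time after injection and time of day therefore cannot be told apart, and neither can time and library preparation, since the 4 h libraries are numbered 1 to 12 and the 1 h libraries 13 to 24.

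The liver has a circadian clock that runs in each hepatocyte. In its core loop the activators CLOCK and BMAL1 (encoded by Arntl) drive the genes of their own repressors, the PER, CRY, CIART and DEC proteins, through E-box sequences. A second loop, through the REV-ERB repressors (Nr1d1 and Nr1d2) and the ROR activators, sets the level of Arntl itself, and the PAR bZIP factors DBP, TEF and HLF carry the rhythm to output genes through D-box sequences. Hepatic transcripts also follow feeding, insulin, glucocorticoids and the stress of handling over minutes to hours, by way of immediate early genes, sterol sensors and nuclear receptors.

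Values are CPM, counts divided by the TMM-scaled library size and brought to a common total. Log2 fold changes are 4 h over 1 h with their standard error, n = 6 per group, from edgeR's quasi-likelihood fit to all 24 libraries, and a gene is called at a Benjamini-Hochberg adjusted p under 0.05 over the 13833 genes tested. The p-values set each change against a spread between mice estimated over all 4 groups, MitoCDNB mice included. A fit to the vehicle libraries alone called 415 genes. The vehicle libraries held 25132737 to 37231025 counts each. The 16 hepatocyte markers summed to 82472 to 98091 CPM at 1 h and 68061 to 93994 CPM at 4 h. Some libraries stood apart. Along the first principal component, with 17.3% of the variance, all 1 h libraries lay between -23.9 and -11.2 and all 4 h libraries between 6.65 and 25.04. The third, with 13.5%, separated replicates 1 to 3 (-28.8 to -7.58) from replicates 4 to 6 (7.45 to 20.6) at both times, and on the second the 4 h replicate 1 stood alone at -39.6. The 1 h replicates 4 to 6 also held transcripts of brain cells: of 30 brain markers, 13 were at 0 in all 1 h replicates 1 to 3, and 10 of those had counts in each of replicates 4 to 6. Snap25, a synaptic vesicle fusion protein, had 17, 17 and 29 counts there and 0 in the other 9 vehicle libraries. Of the 95 called genes that the naming rule picked, 66 were not called in a fit without the 1 h replicates 4 to 6 of both treatments. All 95 kept their sign there, and values from that fit stand beside the results. It left out MitoCDNB libraries as well as vehicle ones, so its shared spread came from fewer libraries. The fits without the 1 h replicates 1 to 3 and within each replicate set also took both treatments alike. Without the 1 h replicates 1 to 3, 52 of the 95 were not called, and values from that fit are given for some genes only. Single omissions left out 1 vehicle library. The part of the brain transcripts in those changes was not tested.

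Between 1 and 4 h after the vehicle, 753 genes changed, 5.44% of those tested. Of these, 413 rose (2.99% of tested genes) and 340 fell (2.46%). Most changes were small: the median absolute log2 fold change of the called genes was 0.49, and 79 changed at least 2-fold, 42 upward and 37 downward. The 6 values at 4 h did not overlap the 6 at 1 h for 346 genes (2.50%), of which 289 were called. Without the 1 h replicates 4 to 6, 177 genes were called, 150 of them among the 753. Without 1 h replicate 5 or 6 alone the count was 500 or 480. Within replicates 1 to 3 alone, 8 genes passed (4 higher, 4 lower), and within replicates 4 to 6, 354 did (175 higher, 179 lower). More genes passed within the replicates whose 1 h libraries held brain transcripts. The 2 sets also lay apart on the third principal component at both times, and the cause was not tested.

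**Figure D1:**
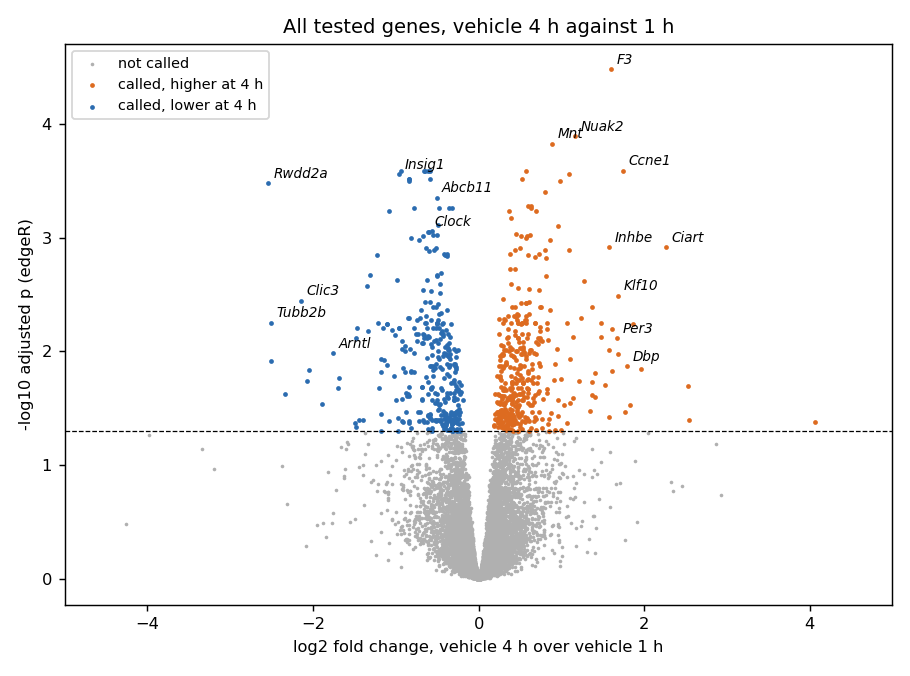
Log2 fold change of vehicle 4 h over vehicle 1 h against the -log10 adjusted p for the tested genes; each point is a gene, the dashed line is an adjusted p of 0.05, and 1 gene with a log2 fold change beyond 5 lies outside the axis. The called genes lie on both sides in like number, 413 higher and 340 lower, with F3 highest on the p axis and Ciart and Rwdd2a among the widest changes.

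Genes of the core clock changed in both of its arms. Of 19 clock genes on 3 lists, all tested, 9 changed (47.4%, against 5.44% of all genes): 6 rose and 3 fell. All 3 genes that fell were activators, and of the 6 that rose 4 encode repressors and 2 PAR bZIP factors. For 7 of the 19 the times did not overlap, against 2.50% of all genes.

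Among the 5 activators the median log2 fold change was -0.60, against 0.00 over all genes. Arntl (chr7:113207465-113314126, GENCODE M21 on GRCm38, the build of mm10), the obligate partner of CLOCK, was at 2.3 to 7.22 CPM at 1 h (median 3.84) and 0.563 to 2.58 CPM at 4 h (median 1.03). It fell (log2 fold change -1.76 ± 0.40, adjusted p = 0.0103), although the highest 4 h value, in replicate 1, lay within the 1 h range. Clock was at 27.5 to 33.5 CPM at 1 h (median 32.9) and 17.4 to 24.9 CPM at 4 h (median 20.4). The Clock values of the 2 times did not overlap (log2 fold change -0.60 ± 0.10, adjusted p = 0.000889). Npas2, a CLOCK paralog that can replace it, was scarce, at 0.272 to 1.04 CPM at 1 h (median 0.429) and 0.0562 to 0.244 CPM at 4 h (median 0.139), and every 4 h value was below every 1 h value (log2 fold change -1.89 ± 0.51, adjusted p = 0.0289). Rora, which encodes a ROR activator, was not called (log2 fold change -0.30 ± 0.11, adjusted p = 0.125).

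The 10 repressors had a median of 0.33, with 4 higher and none lower. Ciart (chr3:95878503-95882251), which encodes a repressor of CLOCK and BMAL1, had the largest rise of the clock genes. Its 1 h values were 1.66 to 2.98 CPM (median 2.29), and its 4 h values 3.64 to 22.4 CPM (median 9.79). The times did not overlap, replicate 1 was highest at 4 h, and the mean was 4.81-fold higher (log2 fold change 2.26 ± 0.37, adjusted p = 0.00121). Per3 was at 2.35 to 8.42 CPM at 1 h (median 6.2) and 10.3 to 29.4 CPM at 4 h (median 20.4), again without overlap (log2 fold change 1.67 ± 0.35, adjusted p = 0.00762). Bhlhe41, which encodes DEC2, was at 1.04 to 2.0 CPM at 1 h (median 1.77) and 2.26 to 6.35 CPM at 4 h (median 5.19). Its lowest 4 h value lay just above its highest 1 h value (log2 fold change 1.61 ± 0.34, adjusted p = 0.00637). Nr1d2, the REV-ERB beta gene, rose less, from a median of 45.8 CPM (35.9 to 56.2) at 1 h to 56.9 CPM (54.6 to 65.7) at 4 h (log2 fold change 0.39 ± 0.10, adjusted p = 0.0218). The other 6 repressors did not pass: Per1 was at -0.15, Per2 at 0.27, Cry1 at -0.14 and Cry2 at 0.19 on the log2 scale. Nr1d1, the REV-ERB alpha gene, was at -0.43 ± 0.14, adjusted p = 0.0667, and Bhlhe40, which encodes DEC1, at 0.75 ± 0.24, adjusted p = 0.0669. The 2 REV-ERB genes thus had estimates of opposite sign, of which the Nr1d2 rise alone passed.

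Of the 4 bZIP factors, Dbp and Tef rose. Dbp was at 6.42 to 29.5 CPM at 1 h (median 23.9) and 39.7 to 103 CPM at 4 h (median 73.3), with no overlap and a mean 3.46-fold higher (log2 fold change 1.79 ± 0.41, adjusted p = 0.0135). Tef was at 52.4 to 91.8 CPM at 1 h (median 76.3) and 95.6 to 149 CPM at 4 h (median 124) (log2 fold change 0.75 ± 0.16, adjusted p = 0.00659), and its 6 values at 4 h were also all above those at 1 h. Hlf was at 0.34 ± 0.12, adjusted p = 0.0942, and Nfil3, the repressor that competes for D-boxes, at -0.02 ± 0.25, adjusted p = 0.981.

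**Figure D2:**
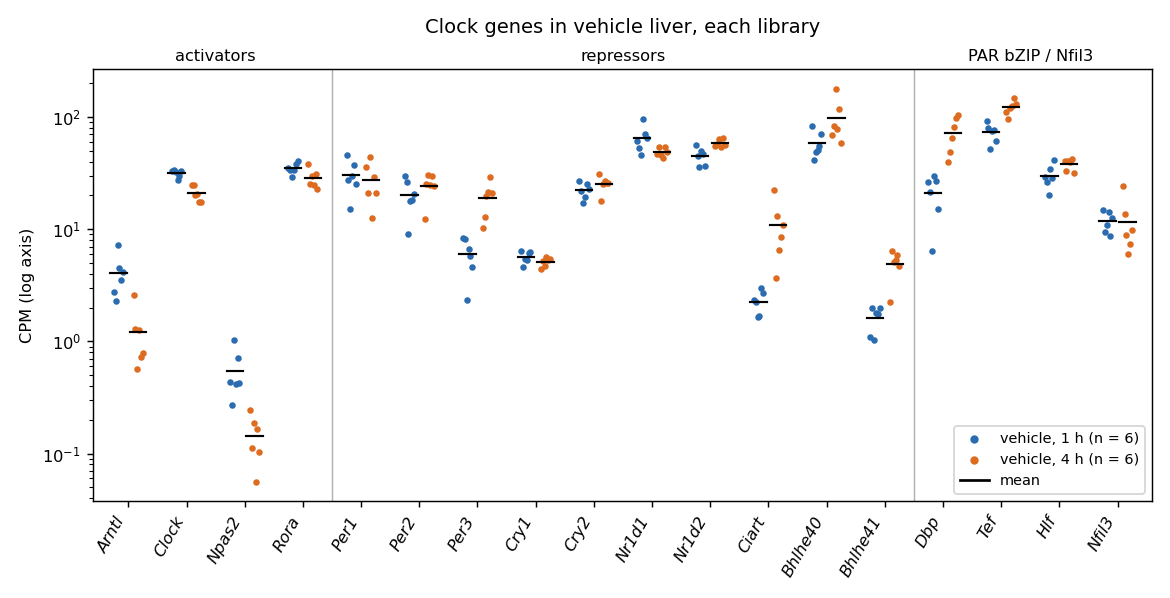
CPM on a log axis of 18 clock genes in each vehicle library at 1 h (blue) and 4 h (orange), 6 per time, with black lines at the means and grey lines between activators, repressors and bZIP factors. Arntl, Clock and Npas2 are lower at 4 h, while Per3, Ciart, Bhlhe41, Dbp and Tef are higher, and the points for Per1, Per2, Cry1 and Cry2 lie at like levels at both times.

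The 9 called clock genes had the same sign in both replicate sets. Within replicates 1 to 3 and within replicates 4 to 6, the log2 fold change was -1.47 and -2.09 for Arntl, -0.51 and -0.69 for Clock and -1.63 and -2.22 for Npas2. It was 2.65 and 1.84 for Ciart, 1.17 and 2.09 for Per3, 1.73 and 1.53 for Bhlhe41 and 0.36 and 0.43 for Nr1d2. For the bZIP factors the values were 1.49 and 2.0 (Dbp) and 0.55 and 0.94 (Tef). Without the 1 h replicates 4 to 6, the calls of Ciart (2.38, adjusted p = 0.0283) and Clock (-0.67, adjusted p = 0.0126) held, and the other 7 calls ended, with like fold changes and adjusted p from 0.0624 (Bhlhe41) to 0.156 (Nr1d2). Hlf, not called in the full set, passed there (0.58, adjusted p = 0.0196). Without the 1 h replicates 1 to 3, Hlf was at 0.12, adjusted p = 0.666. Leaving out 1 library ended the call of Npas2 (1 h replicate 3 or 5 or 4 h replicate 4 or 6, adjusted p up to 0.0716) and of Nr1d2 (1 h replicate 3 or 6 or 4 h replicate 3 or 5, adjusted p up to 0.0652).

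E-boxes, D-boxes and ROR elements are the sequences through which these loops are known to act. In RefSeq promoter windows (GRCm38.p6, 250 bases before to 50 after the start), 16 of the 19 genes had an entry, with 21 windows. The E-box CACGTG, which reads the same on both strands, was in 6 of the 21 windows (28.6%), against 7.15% of all 32851 windows and 7 of 35 windows (20%) of the immediate early genes. Its clock genes were Bhlhe41, Ciart, Cry1, Per1 and Tef. The D-box, searched on both strands as TTATGTAA or TTACGTAA, was in 1.06% of all windows and, of the clock genes, in that of Per3. The ROR element, searched on both strands as AGGTCA preceded by AAAGT or AAATT or AAACT, was in 17 windows (0.0517%), one of which was that of Arntl. Genes with and without a change carried E-boxes, since Cry1 and Per1 did not pass. A second Tef window held an E-box 127 bases before its start and is not shown. Of the called clock output genes, Tspan4 held an E-box and Leo1 a ROR element, also not shown. The 5 windows below belong to called genes of the 3 clock lists. They are shown with the element in capitals, in the direction of transcription. They lie at chr3:95882179-95882478, minus strand, chr6:145865371-145865670, minus strand, chr15:81811164-81811463, plus strand, chr4:151044616-151044915, minus strand, and chr7:113207261-113207560, plus strand.
Ciart: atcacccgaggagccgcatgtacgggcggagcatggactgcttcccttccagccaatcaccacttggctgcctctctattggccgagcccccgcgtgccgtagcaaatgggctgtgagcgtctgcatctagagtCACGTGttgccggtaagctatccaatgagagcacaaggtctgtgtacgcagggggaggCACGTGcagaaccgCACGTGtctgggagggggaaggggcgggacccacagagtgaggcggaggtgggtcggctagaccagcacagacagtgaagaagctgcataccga
Bhlhe41: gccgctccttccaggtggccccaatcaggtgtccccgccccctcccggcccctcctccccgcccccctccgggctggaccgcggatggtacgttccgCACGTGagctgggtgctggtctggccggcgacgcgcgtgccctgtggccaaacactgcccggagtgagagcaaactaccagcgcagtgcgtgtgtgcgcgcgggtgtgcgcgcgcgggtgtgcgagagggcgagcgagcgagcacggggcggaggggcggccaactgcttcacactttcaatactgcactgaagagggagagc
Tef: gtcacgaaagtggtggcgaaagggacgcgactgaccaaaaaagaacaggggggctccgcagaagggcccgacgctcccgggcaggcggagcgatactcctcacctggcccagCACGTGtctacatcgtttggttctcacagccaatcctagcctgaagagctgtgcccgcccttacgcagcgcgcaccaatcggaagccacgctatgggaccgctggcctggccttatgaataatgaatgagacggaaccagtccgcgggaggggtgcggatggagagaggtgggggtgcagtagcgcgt
Per3: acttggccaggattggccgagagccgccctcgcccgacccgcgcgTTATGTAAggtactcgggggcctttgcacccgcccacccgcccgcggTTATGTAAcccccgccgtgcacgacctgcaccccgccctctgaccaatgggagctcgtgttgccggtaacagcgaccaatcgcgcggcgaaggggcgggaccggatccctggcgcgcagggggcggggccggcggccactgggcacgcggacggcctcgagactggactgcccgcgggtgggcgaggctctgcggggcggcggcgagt
Arntl: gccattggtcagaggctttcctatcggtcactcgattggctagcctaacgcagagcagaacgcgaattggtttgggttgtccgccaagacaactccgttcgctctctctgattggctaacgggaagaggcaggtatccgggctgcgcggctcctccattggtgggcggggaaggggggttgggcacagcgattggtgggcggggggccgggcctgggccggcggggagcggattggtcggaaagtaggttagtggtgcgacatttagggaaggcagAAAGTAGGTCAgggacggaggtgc
Ciart held 3 E-boxes, which begin 116, 58 and 44 bases before the start. The E-box of Bhlhe41 begins 153 bases before it and that of Tef 138. Per3 held the D-box letters TTATGTAA at 205 and 158 bases before the start. The ROR element of Arntl lies after its start. A match in these windows is a description of the letters and not of binding.

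Clock output genes, a list of 19 tested genes reported to follow the clock in liver, had 6 members that rose and 2 that fell, 31.6% and 10.5% against 2.99% and 2.46% of all genes, with a median of 0.26. Wee1, the kinase that holds back entry into mitosis and a textbook clock target, was at 1.14 to 3.95 CPM at 1 h (median 2.71) and 2.89 to 18.5 CPM at 4 h (median 10.2) (log2 fold change 1.87 ± 0.38, adjusted p = 0.00568). Its lowest 4 h value, in 1 of the 6 mice, lay within the 1 h range. Usp2, a deubiquitinase, rose from a median of 8.15 CPM (5.01 to 13.5) at 1 h to 27.8 CPM (9.88 to 31.1) at 4 h (log2 fold change 1.48 ± 0.31, adjusted p = 0.00744), and Por, the electron donor of microsomal P450 enzymes, from a median of 181 CPM (160.3 to 218) at 1 h to 294 CPM (229 to 527) at 4 h (log2 fold change 0.84 ± 0.18, adjusted p = 0.00786). The rise of Por was largest in 4 h replicate 1. Smaller rises were those of Tspan4, a tetraspanin (0.60), Gys2, the liver glycogen synthase (0.53), and Nampt, the enzyme that limits NAD salvage (0.50). Leo1, a subunit of the PAF1 elongation complex (-0.48 ± 0.11, adjusted p = 0.0117), fell, and so did Avpr1a, the hepatic vasopressin receptor, named after its values were seen (-0.61 ± 0.17, adjusted p = 0.0369). None of the 19 passed without the 1 h replicates 4 to 6. The log2 fold changes there were Wee1 (2.0, adjusted p = 0.0971), Usp2 (1.5, adjusted p = 0.0768) and Por (0.82, adjusted p = 0.0993). Those of smaller size were Tspan4 (0.42, adjusted p = 0.25), Gys2 (0.55, adjusted p = 0.164) and Nampt (0.39, adjusted p = 0.226). Leo1 was at -0.47, adjusted p = 0.0971, and Avpr1a at -0.67, adjusted p = 0.0882. Leaving out 4 h replicate 5 alone ended the call of Gys2 (adjusted p = 0.0526).

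Outside the clock, the largest rises were in genes of several kinds. F3 (chr3:121723537-121735048), which encodes tissue factor, the initiator of coagulation, had the smallest p of all genes. Its 1 h values were 0.839 to 1.63 CPM (median 1.15) and its 4 h values 3.13 to 4.5 CPM (median 3.31). The times were well apart (log2 fold change 1.60 ± 0.18, adjusted p = 3.35e-05), and without the 1 h replicates 4 to 6 the call held (1.68, adjusted p = 0.00193). Ccne1, cyclin E1, rose from a median of 0.794 CPM (0.332 to 1.27) at 1 h to 2.58 CPM (2.08 to 3.23) at 4 h (log2 fold change 1.75 ± 0.24, adjusted p = 0.000258). Inhbe, the inhibin beta E chain that hepatocytes secrete, rose from a median of 13.8 CPM (8.93 to 24.4) at 1 h to 38.7 CPM (35.1 to 70.2) at 4 h (log2 fold change 1.57 ± 0.26, adjusted p = 0.00121). Klf10, an immediate early gene induced by TGF-beta and by the clock, was at 5.04 to 14.7 CPM at 1 h (median 8.98) and 17.4 to 41.2 CPM at 4 h (median 29.7), with no overlap (log2 fold change 1.69 ± 0.31, adjusted p = 0.00324). Tgm1, a transglutaminase, rose from a median of 4.59 CPM (3.17 to 5.21) at 1 h to 12.9 CPM (7.09 to 22.2) at 4 h (log2 fold change 1.62 ± 0.38, adjusted p = 0.0147), and Nos1ap, an adaptor of neuronal nitric oxide synthase, from a median of 1.72 CPM (0.723 to 1.97) at 1 h to 3.31 CPM (1.63 to 9.05) at 4 h (log2 fold change 1.48 ± 0.30, adjusted p = 0.00561). In 3 cases 1 mouse carried much of the size. B3galt1, a galactosyltransferase, reached 114 CPM in 4 h replicate 1 and 36.3 in the next mouse (log2 fold change 1.83 ± 0.48, adjusted p = 0.0294). Fkbp5 reached 198 CPM in the same mouse and 86.8 in the next. Irak3, an inhibitor of Toll-like receptor signalling, reached 7.08 CPM in 4 h replicate 4 and 0.97 in the next (log2 fold change 1.77 ± 0.49, adjusted p = 0.034). Single omissions ended the calls of B3galt1 (5 of the 12 omissions, adjusted p up to 0.0927) and Irak3 (7 of the 12 omissions, adjusted p up to 0.159). Without 4 h replicate 1, B3galt1 was at 1.16 on the log2 scale, and without 4 h replicate 4 Irak3 was at 0.63. The calls of Ccne1 and Inhbe held without the 1 h replicates 4 to 6. Those of Klf10 (1.46, adjusted p = 0.0747), Tgm1 (1.64, adjusted p = 0.151) and Nos1ap (1.27, adjusted p = 0.13) ended. So did those of B3galt1 (1.97, adjusted p = 0.203), Fkbp5 (1.56, adjusted p = 0.183) and Irak3 (1.84, adjusted p = 0.232).

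The largest falls began with Rwdd2a, at 0.727 to 2.3 CPM at 1 h (median 1.31) and 0.125 to 0.309 CPM at 4 h (median 0.252) (log2 fold change -2.55 ± 0.38, adjusted p = 0.000332). Tubb2b and Tubb2a, beta-tubulin genes so alike in sequence that reads may be shared, both fell without overlap. Tubb2b went from a median of 21.7 CPM (9.29 to 30.2) at 1 h to 3.82 CPM (0.141 to 6.86) at 4 h (log2 fold change -2.51 ± 0.50, adjusted p = 0.00561). Tubb2a, the more abundant, was at 61.9 to 113 CPM at 1 h (median 83.1) and 19.1 to 52.9 CPM at 4 h (median 32) (log2 fold change -1.35 ± 0.24, adjusted p = 0.00267). Chka, choline kinase alpha, the first step of phosphatidylcholine synthesis from choline, fell from a median of 26.9 CPM (16.1 to 59.4) at 1 h to 10.7 CPM (9.37 to 12.8) at 4 h (log2 fold change -1.48 ± 0.31, adjusted p = 0.00755). Clic3, an intracellular chloride channel protein, fell from a median of 2.48 CPM (1.85 to 7.22) at 1 h to 0.767 CPM (0.515 to 1.32) at 4 h (log2 fold change -2.15 ± 0.41, adjusted p = 0.00359), and Dhrs9, a retinol dehydrogenase, from a median of 1.77 CPM (1.03 to 2.3) at 1 h to 0.63 CPM (0.366 to 1.03) at 4 h (log2 fold change -1.33 ± 0.28, adjusted p = 0.00659). Banp, which encodes a nuclear protein that binds CpG-rich promoters, fell from a median of 9.76 CPM (6.8 to 11.5) at 1 h to 4.19 CPM (2.86 to 5.16) at 4 h (log2 fold change -1.22 ± 0.21, adjusted p = 0.00141), and P4ha1, a collagen prolyl hydroxylase subunit, from a median of 13.2 CPM (9.54 to 31.6) at 1 h to 7.49 CPM (5.13 to 9.47) at 4 h (log2 fold change -1.22 ± 0.25, adjusted p = 0.00558). Also among the 15 largest falls were Efna3, an ephrin ligand (-1.47), Robo1, a Slit receptor (-1.18), Ypel2 (-1.31), Atp4a, a proton pump subunit (-1.70), and Arl4d, a small GTPase (-1.40). Leaving out 1 library ended the calls of Arl4d (8 of the 12 omissions, adjusted p up to 0.10) and Atp4a (1 h replicate 3 or 4 h replicate 6, adjusted p up to 0.0646). Among these falls, 7 were not called without the 1 h replicates 4 to 6. They were Tubb2b (-2.18, adjusted p = 0.0979), Tubb2a (-1.13, adjusted p = 0.0756) and Chka (-1.55, adjusted p = 0.063), then Efna3 (-1.25, adjusted p = 0.0621) and Ypel2 (-1.11, adjusted p = 0.0624). The log2 fold change moved by over 1.5 times for Clic3 (-1.24, adjusted p = 0.088) and Arl4d (-0.69, adjusted p = 0.563). Without the 1 h replicates 1 to 3, the calls of P4ha1 (-0.64, adjusted p = 0.0895), Banp (-1.09, adjusted p = 0.0514) and Atp4a (-1.22, adjusted p = 0.135) ended.

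**Figure D3:**
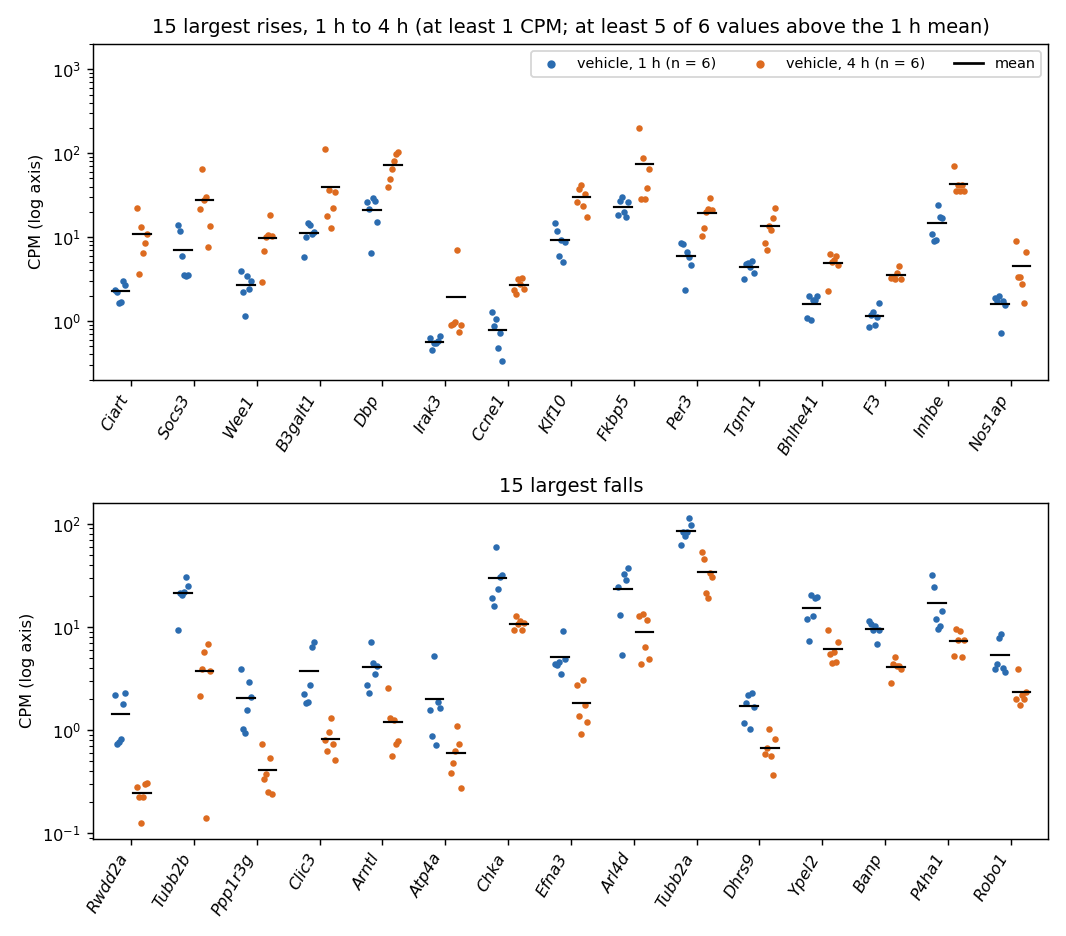
CPM on a log axis of the 15 genes with the largest called rises (top) and falls (bottom) that had a mean of at least 1 CPM in 1 group and at least 5 of 6 values on 1 side of the 1 h mean; points are libraries at 1 h (blue) and 4 h (orange), 6 per time, and black lines are means. Ciart, Dbp, Per3 and F3 have no overlap, whereas the means of B3galt1, Fkbp5 and Irak3 are raised by 1 library each.

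By p, the genes after F3 were Nuak2, a kinase related to AMPK, which rose from a median of 4.78 CPM (4.18 to 6.62) at 1 h to 11.2 CPM (8.95 to 13.6) at 4 h (log2 fold change 1.16 ± 0.14, adjusted p = 0.000129), and Mnt, a MAX partner that opposes MYC, which rose from a median of 5.85 CPM (4.9 to 7.01) at 1 h to 10.5 CPM (9.69 to 12.7) at 4 h (log2 fold change 0.89 ± 0.11, adjusted p = 0.000151). Syne1, the nuclear envelope protein nesprin-1, was at 19.7 to 33.8 CPM at 1 h (median 24.5) and 9.34 to 15.2 CPM at 4 h (median 13.8) and fell without overlap (log2 fold change -0.94 ± 0.13, adjusted p = 0.000258). Steap3, an endosomal ferrireductase (-0.64), Ablim1, an actin-binding protein (-0.61), Slc15a4, a lysosomal histidine and peptide transporter (-0.65), and Amt, part of the glycine cleavage system (-0.59), fell by less. Fam76a rose (0.57). All 10 genes of smallest p stayed called in each of the 12 single omissions and without the 1 h replicates 4 to 6. Mnt and Syne1 were also among the 8 genes called within replicates 1 to 3 alone.

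Of 36 immediate early genes tested, 2 rose and none fell (5.56%, near the 5.44% of all genes), with a median of -0.04. These were Klf10 and Socs3, the feedback inhibitor of cytokine receptors. Socs3 was at 3.41 to 14.1 CPM at 1 h (median 4.75) and 7.59 to 64.3 CPM at 4 h (median 24.8) (log2 fold change 1.96 ± 0.46, adjusted p = 0.0143). Its values overlapped, and neither gene was called without the 1 h replicates 4 to 6 (Klf10 1.46, adjusted p = 0.0747, and Socs3 1.37, adjusted p = 0.264). The textbook members of the list spread widely between mice. Fos, a subunit of AP-1, was at 11.2 ± 18.8 CPM at 1 h and 22.2 ± 42.3 CPM at 4 h (mean ± SD, n = 6 mice), and Egr1, a zinc finger factor, at 61.7 ± 48.6 CPM at 1 h and 48.8 ± 83.4 CPM at 4 h. Their log2 fold changes were 0.98 ± 1.09, adjusted p = 0.695 for Fos, and -0.34 ± 0.90, adjusted p = 0.895 for Egr1.

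Of 29 tested genes that respond to glucocorticoids, the adrenal steroids of stress and of the daily rhythm, 2 rose (6.90%) and 1 fell (3.45%), against 2.99% and 2.46% of all genes. Fkbp5, a co-chaperone of the glucocorticoid receptor, was at 17.4 to 30 CPM at 1 h (median 23.1) and 28.7 to 198 CPM at 4 h (median 51.4) (log2 fold change 1.68 ± 0.37, adjusted p = 0.0106). Without 4 h replicate 1 and a MitoCDNB library that also stood apart, Fkbp5 was at 1.09, adjusted p = 0.0179. Gadd45a, a stress sensor of growth arrest that is also a p53 target, rose from a median of 1.71 CPM (1.17 to 3.1) at 1 h to 4.53 CPM (2.51 to 9.28) at 4 h (log2 fold change 1.41 ± 0.34, adjusted p = 0.0153). Tsc22d3, which encodes the glucocorticoid-induced leucine zipper, fell from a median of 91.4 CPM (46.8 to 124) at 1 h to 32.7 CPM (18.4 to 68.5) at 4 h (log2 fold change -1.18 ± 0.35, adjusted p = 0.0496). Its call was lost in 9 of the 12 single omissions (adjusted p up to 0.11). Of 19 growth hormone and STAT5 genes, 1 rose and 1 fell (5.26% each, against 2.99% and 2.46% of all genes). Socs3 rose, and Stat5b itself, the factor that carries the growth hormone signal, fell. Stat5b went from a median of 62.9 CPM (50 to 71.1) at 1 h to 37.4 CPM (33.7 to 41.6) at 4 h (log2 fold change -0.70 ± 0.14, adjusted p = 0.00435). The calls of Fkbp5 (1.56, adjusted p = 0.183), Gadd45a (1.52, adjusted p = 0.119), Tsc22d3 (-0.98, adjusted p = 0.334) and Stat5b (-0.63, adjusted p = 0.0631) ended without the 1 h replicates 4 to 6.

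Regulators of glucose output were among the changed genes. Of 22 genes of gluconeogenesis and the fasting response, 4 fell (18.2%, against 2.46% of all genes) and 1 rose (4.55%, against 2.99%), with a median of -0.27. Foxo1, a transcription factor that insulin inhibits, fell from a median of 33.1 CPM (32 to 36) at 1 h to 21.2 CPM (16.2 to 32.1) at 4 h (log2 fold change -0.50 ± 0.13, adjusted p = 0.0284). Its relative Foxo3 fell from a median of 19 CPM (12.4 to 22.9) at 1 h to 12.3 CPM (7.35 to 13) at 4 h (log2 fold change -0.64 ± 0.16, adjusted p = 0.0168). Ppargc1a, their coactivator in fasting, fell from a median of 8.48 CPM (4.27 to 9.57) at 1 h to 3.94 CPM (3.6 to 5.57) at 4 h (log2 fold change -0.92 ± 0.26, adjusted p = 0.0417). Slc37a4, the glucose 6-phosphate transporter, rose from a median of 125 CPM (100.1 to 135) at 1 h to 157 CPM (127 to 183) at 4 h (log2 fold change 0.36 ± 0.09, adjusted p = 0.0259). The enzymes at the ends of the pathway did not pass. Pck1, phosphoenolpyruvate carboxykinase, was at 1719 ± 319 CPM at 1 h and 1474 ± 779 CPM at 4 h (mean ± SD), log2 fold change -0.22 ± 0.34, adjusted p = 0.788. G6pc, the catalytic subunit of glucose 6-phosphatase, was at 451 ± 99.3 CPM at 1 h and 264 ± 182 CPM at 4 h, log2 fold change -0.77 ± 0.41, adjusted p = 0.312. Of 15 genes of insulin signalling, Irs1, a docking protein of the receptor, fell without overlap, from a median of 18.7 CPM (11.9 to 23.4) at 1 h to 9.96 CPM (4.74 to 11.5) at 4 h (log2 fold change -0.96 ± 0.20, adjusted p = 0.00624). Foxo1, with overlapping values, was the other member to fall, and none rose (13.3% fell, against 2.46% of all genes).

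Of 15 glycogen genes, 3 fell (20%, against 2.46% of all genes) and 1 rose (6.67%, against 2.99%). Gys2 rose from a median of 91.8 CPM (77.3 to 113) at 1 h to 134 CPM (108 to 179.5) at 4 h (log2 fold change 0.53 ± 0.13, adjusted p = 0.0188). Those that fell include 2 subunits that bring protein phosphatase 1 to glycogen. Ppp1r3g, the fasting-induced one, was at 0.933 to 3.91 CPM at 1 h (median 1.82) and 0.24 to 0.731 CPM at 4 h (median 0.355) (log2 fold change -2.34 ± 0.59, adjusted p = 0.0235). Ppp1r3b, the main liver form, fell from a median of 172 CPM (129 to 246) at 1 h to 91.2 CPM (78 to 169.7) at 4 h (log2 fold change -0.67 ± 0.19, adjusted p = 0.0403), and Gckr, the regulatory protein of glucokinase, from a median of 151 CPM (144 to 159.5) at 1 h to 119.6 CPM (109.9 to 146) at 4 h (log2 fold change -0.29 ± 0.07, adjusted p = 0.0188). With 1 library left out, calls were lost for Ppp1r3g (1 h replicate 1 or 5 or 4 h replicate 3 or 6, adjusted p up to 0.0609), Ppp1r3b (9 of the 12 omissions, adjusted p up to 0.11), Foxo1 (5 of the 12 omissions, adjusted p up to 0.0655), Ppargc1a (10 of the 12 omissions, adjusted p up to 0.0833) and Slc37a4 (1 h replicate 3 or 4 h replicate 3 or 6, adjusted p up to 0.069). None of the genes on the gluconeogenesis, insulin and glycogen lists was called without the 1 h replicates 4 to 6. There the values were Foxo1 (-0.48, adjusted p = 0.175), Foxo3 (-0.57, adjusted p = 0.0834) and Ppargc1a (-1.10, adjusted p = 0.087). They were also without a call for Slc37a4 (0.43, adjusted p = 0.0797) and Irs1 (-0.97, adjusted p = 0.0655). Of the glycogen genes, the values were Gys2 (0.55, adjusted p = 0.164), Ppp1r3g (-2.26, adjusted p = 0.176), Ppp1r3b (-0.53, adjusted p = 0.331) and Gckr (-0.26, adjusted p = 0.208).

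Of 25 genes of cholesterol synthesis and uptake, 4 fell (16%, against 2.46% of all genes) and none rose, the median was -0.21, and 23 of the 25 had estimates below 0. Over all 13833 genes, 6865 had estimates above 0. Insig1, the sterol sensor that holds SREBP in the endoplasmic reticulum and is itself an SREBP target, was at 135 to 272 CPM at 1 h (median 203) and 91.7 to 115 CPM at 4 h (median 104). The 4 h values were close together and below every 1 h value (log2 fold change -0.96 ± 0.14, adjusted p = 0.000277). Hmgcs1, which makes HMG-CoA, fell from a median of 116 CPM (85.4 to 137) at 1 h to 58.9 CPM (45.2 to 91) at 4 h (log2 fold change -0.89 ± 0.20, adjusted p = 0.00996). Sc5d, a late enzyme of the pathway (-0.62), and Acat2, cytosolic acetoacetyl-CoA thiolase (-0.42), fell without overlap. Without the 1 h replicates 4 to 6, Insig1 (-0.71, adjusted p = 0.0241) and Acat2 (-0.43, adjusted p = 0.0313) were still called. The calls of Hmgcs1 (-0.78, adjusted p = 0.121) and Sc5d (-0.36, adjusted p = 0.137) ended there.

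In the bile acid list, 1 of 16 genes rose and 1 fell (6.25% each, against 2.99% and 2.46% of all genes). Abcb11, the bile salt export pump of the canalicular membrane, was at 523 to 625 CPM at 1 h (median 555) and 368 to 416 CPM at 4 h (median 403). The values did not overlap and the spread within each time was small (log2 fold change -0.51 ± 0.08, adjusted p = 0.000448), and the call held without the 1 h replicates 4 to 6 (-0.48, adjusted p = 0.0236). Nr1h4, the bile acid receptor FXR, which activates Abcb11, rose from a median of 63.5 CPM (48.6 to 82.7) at 1 h to 85 CPM (71.8 to 104) at 4 h (log2 fold change 0.43 ± 0.10, adjusted p = 0.0139). Cyp7a1, the rate-limiting enzyme of bile acid synthesis, was at 32.1 ± 14.4 CPM at 1 h and 62.3 ± 45.6 CPM at 4 h (mean ± SD) and did not pass (0.96 ± 0.60, adjusted p = 0.409). Of 28 genes of fatty acid oxidation and ketogenesis, Ppara, the fatty acid receptor that drives them, rose from a median of 123 CPM (82.4 to 154) at 1 h to 174 CPM (124 to 215) at 4 h (log2 fold change 0.52 ± 0.14, adjusted p = 0.0235), and no other member was called, with a median of 0.22. That 1 call was 3.57% of the list, against 2.99% of all genes called higher. None of the 23 lipogenic genes passed (edgeR 0, with 10 at an unadjusted p under 0.05, DESeq2 3, voom 2). Over all 13833 genes, 2712 had an unadjusted p under 0.05. The smallest adjusted p among the lipogenic genes was that of Mlxipl, the glucose-sensing factor ChREBP (-0.28 ± 0.09, adjusted p = 0.0782). A single omission ended the call of Ppara (1 h replicate 2 or 3 or 4 h replicate 1 or 3, adjusted p up to 0.0591). Without the 1 h replicates 4 to 6, Ppara (0.77, adjusted p = 0.0175) and Nr1h4 (0.61, adjusted p = 0.0183) stayed called. Without the 1 h replicates 1 to 3, neither Ppara (0.31, adjusted p = 0.267) nor Nr1h4 (0.27, adjusted p = 0.265) was called.

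Over 8 stress and immune lists, 9 of 187 tested genes were called (4.81%), a share near the 5.44% of all genes. Of 22 genes of the unfolded protein response, Xbp1, its spliced transcription factor, rose from a median of 125 CPM (99.2 to 162) at 1 h to 215 CPM (169 to 301) at 4 h (log2 fold change 0.78 ± 0.20, adjusted p = 0.026). Syvn1, a ubiquitin ligase of the same compartment, fell from a median of 80.1 CPM (69.6 to 106) at 1 h to 58.3 CPM (44.3 to 66.5) at 4 h (log2 fold change -0.58 ± 0.15, adjusted p = 0.021), and 21 of the 22 had estimates below 0. Over all 13833 genes, 6865 had estimates above 0. Of 29 genes of the integrated stress response, 3 fell: Cth, cystathionine gamma-lyase (-0.56 ± 0.13, adjusted p = 0.00919), Ddit3, the factor CHOP (-0.48 ± 0.13, adjusted p = 0.0319), and Atf5 (-0.40 ± 0.11, adjusted p = 0.0363). Gclc, the catalytic subunit of glutathione synthesis and an NRF2 target, fell without overlap, from a median of 226 CPM (194 to 268) at 1 h to 146 CPM (118 to 188) at 4 h (log2 fold change -0.62 ± 0.14, adjusted p = 0.00762), and was the single call among 29 NRF2 targets. Among 20 heat shock genes Dnajb4 fell (-0.68 ± 0.17, adjusted p = 0.0205), whereas Hspa1b, the inducible HSP70, was at 103 ± 99.4 CPM at 1 h and 31.2 ± 21.8 CPM at 4 h (mean ± SD) and did not pass (-1.73 ± 0.70, adjusted p = 0.164). Calls that ended on leaving out 1 library were those of Xbp1 (1 h replicate 1 or 5 or 6 or 4 h replicate 6, adjusted p up to 0.0691), Syvn1 (1 h replicate 4, adjusted p up to 0.051), Ddit3 (7 of the 12 omissions, adjusted p up to 0.084), Atf5 (10 of the 12 omissions, adjusted p up to 0.0844) and Dnajb4 (1 h replicate 1, adjusted p up to 0.0554). None of the 7 called genes passed without the 1 h replicates 4 to 6. The values were Xbp1 (0.60, adjusted p = 0.228), Syvn1 (-0.59, adjusted p = 0.0967), Gclc (-0.51, adjusted p = 0.0856) and Dnajb4 (-0.84, adjusted p = 0.0691). For the integrated stress response they were Cth (-0.56, adjusted p = 0.0999), Ddit3 (-0.55, adjusted p = 0.103) and Atf5 (-0.42, adjusted p = 0.199).

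Among 31 acute phase genes Socs3 alone was called, and among 30 interferon-stimulated genes Rsad2, the antiviral protein viperin (-0.75 ± 0.16, adjusted p = 0.00811), which fell and was also called without the 1 h replicates 4 to 6 (-0.78, adjusted p = 0.0429). Rsad2 was not called without the 1 h replicates 1 to 3 (-0.72, adjusted p = 0.0802). None of 20 NF-kB targets and chemokines was called (edgeR 0, with 2 at an unadjusted p under 0.05, DESeq2 0, voom 0). Cxcl1, a neutrophil chemokine, shown because its spread was seen in the data, was at 182, 34.9, 3.8, 2.82, 1.28 and 1.63 CPM in 1 h replicates 1 to 6. At 4 h the Cxcl1 values were 27.7, 139, 64.1, 8.21, 4.33 and 7.35 CPM. High values lay in replicates 1 to 3 at both times, with an exception in 1 h replicate 3. None of 8 metallothionein and zinc transport genes passed (edgeR 0, with 6 at an unadjusted p under 0.05, DESeq2 1, voom 1). Of all 13833 genes, 2712 had an unadjusted p under 0.05. Mt1, a metal-binding protein, was at 44.8 ± 73.4 CPM at 1 h and 246 ± 456 CPM at 4 h, log2 fold change 2.46 ± 0.96, adjusted p = 0.152.

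Genes of ribosome biogenesis shared a direction. All 32 tested members had estimates above 0, against 6865 of all 13833 genes. The median was 0.25, and 6 passed, all higher (18.8%, against 2.99% of all genes). Rrp9, a component of the U3 snoRNA particle, was at 5.59 to 7.33 CPM at 1 h (median 6.25) and 8.47 to 12.4 CPM at 4 h (median 9.75), without overlap (log2 fold change 0.64 ± 0.10, adjusted p = 0.000551). Nop2, an rRNA methyltransferase, rose without overlap as well, from a median of 14 CPM (11.8 to 15.8) at 1 h to 20.8 CPM (16.4 to 24.2) at 4 h (log2 fold change 0.57 ± 0.13, adjusted p = 0.0109). Rrp12 (0.65), the RNA polymerase I subunit gene Polr1b (0.40), Heatr1 (0.39) and Ncl, nucleolin (0.23), were the other 4. Single omissions ended the calls of Polr1b (1 h replicate 1 or 2 or 5 or 4 h replicate 3, adjusted p up to 0.0558), Heatr1 (8 of the 12 omissions, adjusted p up to 0.107) and Ncl (10 of the 12 omissions, adjusted p up to 0.102). Without the 1 h replicates 4 to 6, Rrp9 (0.59, adjusted p = 0.0313) and Polr1b (0.57, adjusted p = 0.0175) passed. The calls of Nop2 (0.62, adjusted p = 0.0768), Rrp12 (0.68, adjusted p = 0.0955), Heatr1 (0.42, adjusted p = 0.146) and Ncl (0.24, adjusted p = 0.208) ended. Without the 1 h replicates 1 to 3, Rrp9 passed (0.68, adjusted p = 0.00854) and Polr1b did not (0.25, adjusted p = 0.347). None of 40 ribosomal protein genes was called (edgeR 0, with 0 at an unadjusted p under 0.05, DESeq2 0, voom 0), with a median of 0.03 and 33 estimates above 0. Nor was any of 41 nuclear genes of the respiratory chain (edgeR 0, with 0 at an unadjusted p under 0.05, DESeq2 0, voom 0), with a median of 0.04 and 34 estimates above 0. Of 27 cell cycle genes, Ccne1, Wee1 and Cdk4 rose (11.1%, against 2.99% of all genes). Cdk4, a G1 kinase, moved little (log2 fold change 0.22 ± 0.06, adjusted p = 0.0278) and its call ended with 6 of the 12 single omissions. Of 24 p53 targets, Gadd45a and Tigar rose (8.33%, against 2.99% of all genes). Tigar, a fructose bisphosphatase, was at 0.36 ± 0.11, adjusted p = 0.0484, and its call ended with 9 of the 12. Neither Cdk4 (0.21, adjusted p = 0.20) nor Tigar (0.24, adjusted p = 0.411) was called without the 1 h replicates 4 to 6.

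**Figure D4:**
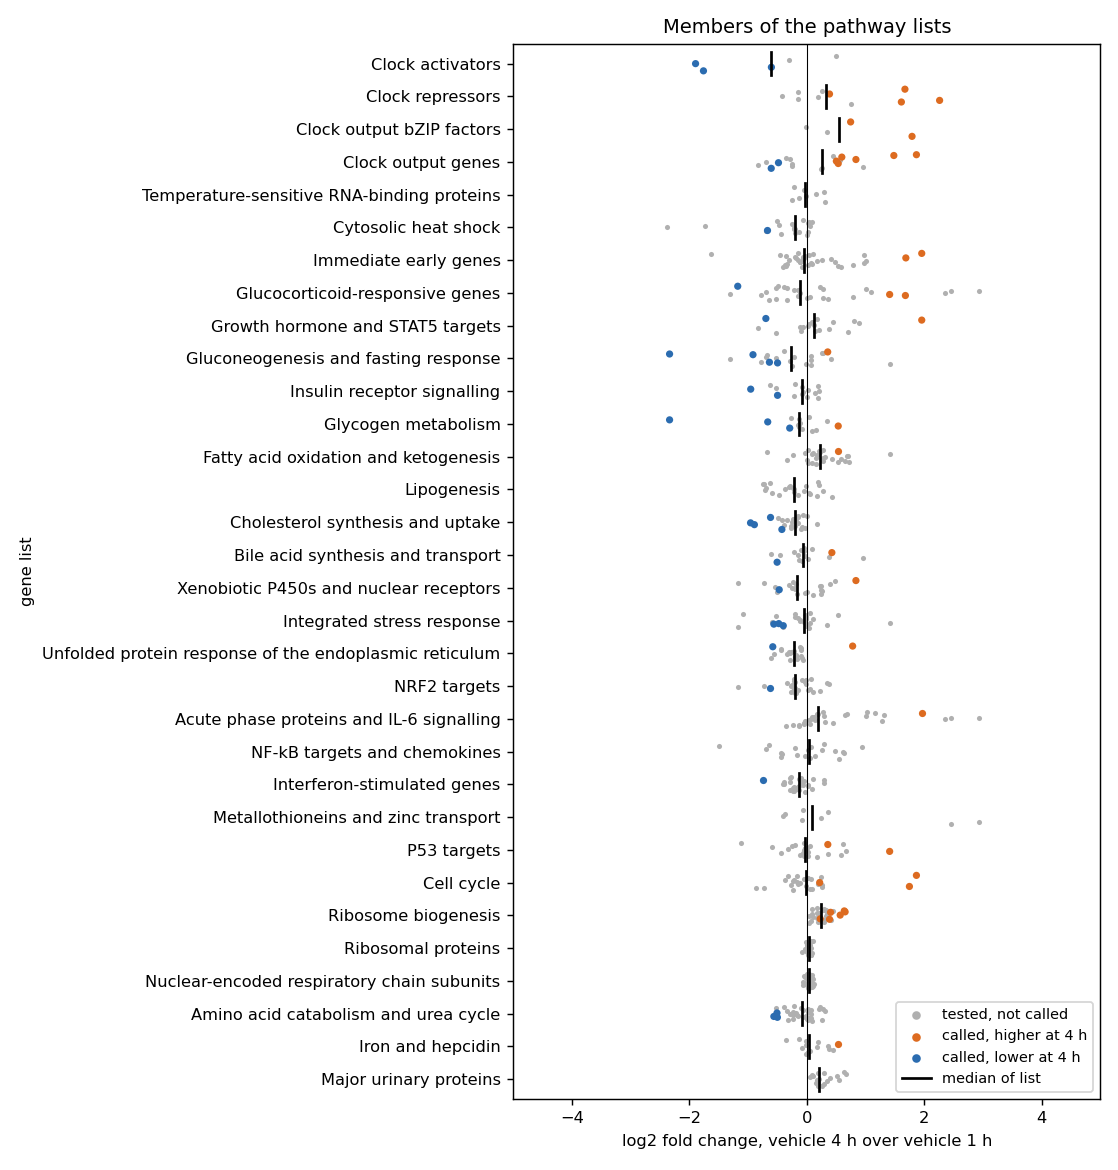
Log2 fold change of vehicle 4 h over 1 h for the tested members of each pathway list; each point is a gene, coloured where called (orange higher, blue lower), and black lines are list medians. The called clock activators lie to the left of 0, the called repressors and bZIP factors lie to the right, the ribosome biogenesis genes all lie above 0, and the ribosomal protein and respiratory chain genes lie close to 0 with no call.

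Among the 12 most abundant called genes, 6 in each direction, were enzymes of amino acid, lipid and drug metabolism. Cbs, the first enzyme of transsulfuration, fell without overlap, from a median of 371 CPM (328 to 493) at 1 h to 269 CPM (231 to 323) at 4 h (log2 fold change -0.50 ± 0.10, adjusted p = 0.00561), and was 1 of 3 of the 34 amino acid catabolism genes to fall, with Cth and Hal, histidase (-0.51 ± 0.13, adjusted p = 0.0235), which is 8.82% of them, against 2.46% of all genes. Crot, the peroxisomal carnitine octanoyltransferase, fell from a median of 387 CPM (373 to 457) at 1 h to 268 CPM (237 to 355) at 4 h (log2 fold change -0.49 ± 0.11, adjusted p = 0.00996), and Sec14l2, a lipid transfer protein, from a median of 418 CPM (345 to 528) at 1 h to 334 CPM (307 to 352) at 4 h (log2 fold change -0.36 ± 0.09, adjusted p = 0.0136). Cyp2c29, a P450 with close paralogs that may share reads, fell from a median of 566 CPM (489 to 689) at 1 h to 416 CPM (344 to 532) at 4 h (log2 fold change -0.47 ± 0.14, adjusted p = 0.0402). Igfbp4, an IGF-binding protein (0.28 ± 0.07, adjusted p = 0.0135), Tkfc, a triokinase of fructose metabolism (0.43 ± 0.12, adjusted p = 0.0378), and C4a, a complement gene with the near-identical copy C4b (0.67 ± 0.18, adjusted p = 0.0277), rose. Among these genes, 1 omission ended the calls of Cyp2c29 (9 of the 12 omissions, adjusted p up to 0.0944), Tkfc (7 of the 12 omissions, adjusted p up to 0.088), C4a (6 of the 12 omissions, adjusted p up to 0.0714) and Hal (1 h replicate 5 or 6 or 4 h replicate 5, adjusted p up to 0.069). None of the genes named here was called without the 1 h replicates 4 to 6. The values of Sec14l2 (-0.13, adjusted p = 0.454), Hal (-0.27, adjusted p = 0.432) and C4a (0.43, adjusted p = 0.285) were over 1.5 times smaller there, and Sec14l2 was at -0.15 within replicates 1 to 3. The others were Cbs (-0.51, adjusted p = 0.0691), Crot (-0.50, adjusted p = 0.0993) and Cyp2c29 (-0.37, adjusted p = 0.311). Igfbp4 and Tkfc, higher in the full set, were at 0.24, adjusted p = 0.174, and 0.49, adjusted p = 0.137.

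Over 8 lists of liver cell type markers, 2 of 90 tested genes were called (2.22%, against 5.44% of all genes). In bulk tissue, fewer cells of a type and less RNA per cell cannot be told apart. Of 16 hepatocyte markers 1 fell, Cyp2c29, and of 16 endothelial markers 1 fell, Ehd3, a protein of sinusoidal endothelium, from a median of 45.8 CPM (41.7 to 51.5) at 1 h to 37.1 CPM (30.1 to 38.3) at 4 h (log2 fold change -0.35 ± 0.08, adjusted p = 0.00751). The call of Ehd3 (-0.34, adjusted p = 0.105) ended without the 1 h replicates 4 to 6. No Kupffer, neutrophil, T and natural killer, B, stellate or cholangiocyte marker was called by edgeR. Before adjustment, the lists in that order had 1, 1, 0, 0, 2 and 1 genes with p under 0.05, against 2712 of all 13833 genes. DESeq2 called 0 on each and voom 0. None of the summed levels of 17 lists, the major urinary proteins among them, passed between times (exact permutation tests over 6 against 6, two-sided, smallest adjusted p 0.442). The sum of Kupffer cell markers was 326 to 456 CPM at 1 h and 267 to 749 CPM at 4 h, the highest in 4 h replicate 4. There Marco, a scavenger receptor of Kupffer cells, reached 90.8 CPM, against at most 5.31 CPM in the other 4 h libraries. The 20 major urinary protein genes, a hepatocyte family with near-identical copies, took 22.5% to 34.0% of counts at 1 h and 20.7% to 36.4% at 4 h.

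Brain markers set 3 of the vehicle 1 h libraries apart. Their sum was 23.9 to 31.3 CPM in 1 h replicates 1 to 3, 38.4 to 43.6 CPM in 1 h replicates 4 to 6, and 25.4 to 34.1 CPM at 4 h. Camk2a, a kinase of excitatory neurons, had 50, 47 and 49 counts in 1 h replicates 4 to 6 and at most 7 in any other vehicle library. Of the 16 brain markers tested, 1 was called in vehicle mice (6.25%, against 5.44% of all genes). In MitoCDNB mice, where 1854 of all 13833 genes fell over time, 6 of the 16 fell and none rose, with a median of -0.84. There Camk2a was at -3.27, adjusted p = 0.0307, and Slc17a7 at -4.31, adjusted p = 0.0167. Snap25 was at -6.50 and did not pass (adjusted p = 0.0622). The tubulin genes Tubb2a and Tubb2b, which neurons also express, were lower at 4 h in both replicate sets, at -0.88 and -1.81 (Tubb2a) and -2.09 and -2.87 (Tubb2b) on the log2 scale within replicates 1 to 3 and 4 to 6. Neither passed within replicates 1 to 3 (adjusted p = 0.331 and 0.132), and both calls ended without the 1 h replicates 4 to 6 (-1.13, adjusted p = 0.0756, and -2.18, adjusted p = 0.0979).

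The same times in MitoCDNB mice, in libraries that share no mouse with the vehicle groups, gave 3940 called genes (28.5%). Of the 753 vehicle genes, 536 were also called there, which is 71.2% of the 753 and 13.6% of the 3940, and 526 of these had the same sign. In all, 706 of the 753 had the same sign. Time and library number run together in both sets of mice. Over time in MitoCDNB mice 6 of 16 brain markers were called lower, against 1854 of all 13833 genes (median -0.84). In vehicle mice 1 of the 16 was called lower and 14 had estimates below 0 (median -0.34). The part of brain transcripts in the shared changes was not tested. The difference between the time changes, tested as an interaction, was called for 563 genes (4.07%), of which 60 were among the 753. For 27 of the 60 the sign was opposite, for 31 the MitoCDNB change was larger with the same sign, and for 2 it was smaller. Of the 217 genes called in vehicle and not in MitoCDNB mice, 18 passed that test, and for the others no difference was shown.

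Among the named vehicle changes that differed, Banp fell in vehicle mice and was at 0.57 ± 0.21, adjusted p = 0.0486 in MitoCDNB mice (adjusted p of the difference = 0.000867). Gadd45a rose in vehicle mice and fell in MitoCDNB mice (-1.10, adjusted p of the difference = 0.00228). Wee1 rose in vehicle mice and was at -0.10 ± 0.36, adjusted p = 0.872 in MitoCDNB mice (adjusted p of the difference = 0.0324). Foxo3, Ppp1r3g, Gclc and Insig1 fell in both and further in MitoCDNB mice, where they were at -2.25, -5.55, -1.34 and -1.62 on the log2 scale. The adjusted p of the difference was 7.91e-05, 0.0301, 0.0308 and 0.0496 for these genes in turn. Mnt rose in both and by less in MitoCDNB mice (0.32, adjusted p of the difference = 0.0384).

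Of the 19 clock genes, 11 were called over time in MitoCDNB mice, against 28.5% of all genes. The time change differed for 5 of the 19, against 4.07% of all genes, and none of the 5 was among the 9 called in vehicle mice. These were Nr1d1 (-0.43 in vehicle and 1.04 in MitoCDNB mice, adjusted p of the difference = 5.51e-05), Bhlhe40 (0.75 and -1.03, 0.00271), Rora (-0.30 and -1.10, 0.00329), Nfil3 (-0.02 and -1.74, 0.0064) and Per1 (-0.15 and -1.70, 0.0397). For the called 9 the MitoCDNB values ran in the same direction except Nr1d2 (-0.02). They were -0.68 for Arntl, -0.44 for Clock, -2.0 for Npas2, 0.91 for Ciart, 2.33 for Per3, 0.81 for Bhlhe41, 2.30 for Dbp and 1.24 for Tef. F3 was at 1.60 in vehicle and 1.66 in MitoCDNB mice.

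**Figure D5:**
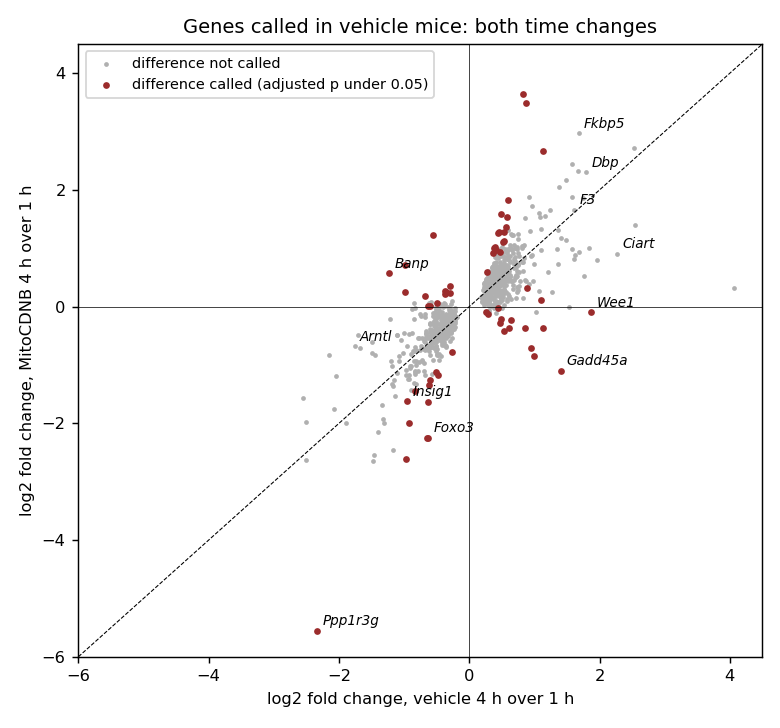
Time change (log2 fold change, 4 h over 1 h) in MitoCDNB mice against that in vehicle mice for the 753 genes called in vehicle mice; red points are the 60 genes whose time changes differ at an adjusted p under 0.05, and the dashed line marks equal changes. Most points, 706 of 753, lie in the quadrants of the same sign, and Gadd45a, Banp and Wee1 lie off them.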

How the data were processed

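RNA from the medial liver lobe of 24 C57BL/6 mice was sequenced from poly(A) RNA with an NEBNext Ultra kit, per the labels' protocols. The submitters' processing notes name CASAVA 1.8.4, Trim Galore, HISAT2, DESeq2 and mm10. How reads were counted per gene (tool, annotation, strand, multi-mapping) is not given in the sources used here. Values of antisense, overlapping and near-identical genes are therefore uncertain. The deposited table holds unnormalized counts per gene, as the authors made them. It has 24421 rows, 4653 of them with no count, and totals of 25132737 to 37231025 per vehicle library, which limits precision for genes under about 1 CPM.

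Genes were filtered with filterByExpr (minimum count 10, total 15), which removed 0.0306% of counts and left 13833. TMM scaling and edgeR 4.0.16 quasi-likelihood F tests (robust, R 4.3.3) were fitted to all 24 libraries in 4 groups, with contrasts for time in vehicle mice, time in MitoCDNB mice and their difference, Benjamini-Hochberg adjusted and called at 0.05. The standard error is the absolute log2 fold change over the root of F. The fit was tested on simulated data. Marker sums were compared by exact permutation. Labels number the mice 1 to 6 in each group, and no label says that a number is shared between groups. Alternatives were other scalings, filters, thresholds, DESeq2 1.42.0, limma 3.58.1 voom, fits to other libraries, a replicate block and single omissions. A term for replicates 1 to 3 against 4 to 6, and fits within each, were added after seeing the data.

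The members and the 48 gene lists (882 genes, 10 without a row) were chosen with earlier results of these data known, and list counts are descriptions. Named genes are the 15 largest called changes each way (at least 1 CPM, at least 5 of 6 mice on 1 side), the 10 smallest p, the 6 most abundant each way, up to 6 called members per list (or the best uncalled one), all clock genes, and the 5 largest differences each way between the time changes. Unnamed gene models were skipped. Avpr1a, Fos, Egr1, Pck1, G6pc, Cyp7a1, Hspa1b, Mt1, Cxcl1, Snap25 and Camk2a were added after their values were seen. Some genes that the rule names are not reported here. Promoters came from RefSeq.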

Additional observations from a re-analysis of the deposited data

Results flagged for a closer look

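Of 266 groups of 6 libraries examined for the named genes, 30 held a library far from the others, by a rule on the gap to the nearest value over the whole range that chance alone meets in about 1 of 20 groups. Values are CPM, with the nearest other value of the group second. At 1 h, replicate 1 was high for Ddit3 (10.8 against 8.55), Mroh6 (10.7 against 4.39), Nr4a1 (14.3 against 6.09), Rasd1 (1.15 against 0.507) and Relb (3.7 against 2.09). Replicate 3 of the 1 h group was high for Atp4a (5.28 against 1.89), Chka (59.4 against 31.7) and Marco (12.3 against 6.78). In the 1 h group, replicate 3 was low for Slc37a4 (100.1 against 124). At 1 h, replicate 4 was high for Polr1b (13.5 against 10.2). Replicate 4 of the 1 h group was low for Nos1ap (0.723 against 1.54) and Ppargc1a (4.27 against 7.84). In the 1 h group, replicate 5 was high for Efna3 (9.23 against 4.92). At 1 h, replicate 6 was low for Fam76a (7.52 against 8.88). Replicate 1 of the 4 h group was high for Arntl (2.58 against 1.3), Atf5 (201 against 149.5), B3galt1 (114 against 36.3), Fkbp5 (198 against 86.8), Inhbe (70.2 against 42.2) and Rasd1 (4.14 against 1.34). In the 4 h group, replicate 1 was low for Per2 (12.3 against 24.2). At 4 h, replicate 2 was high for Hmgcs1 (91 against 62.3) and Robo1 (3.94 against 2.34). Replicate 2 of the 4 h group was low for Ehd3 (30.1 against 36.7) and Foxo3 (7.35 against 11.4). In the 4 h group, replicate 3 was high for Apold1 (2.1 against 1.01) and Nr4a1 (17.2 against 7.02). At 4 h, replicate 4 was high for Irak3 (7.08 against 0.969), Marco (90.8 against 5.31) and Smad6 (8.52 against 6.11). In all, 7 of the 30 lay in 4 h replicate 1.

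The change over time differed between vehicle and MitoCDNB mice for 25 of the named genes (interaction in edgeR's fit, adjusted p under 0.05 for each, n = 6 mice per group). The difference of the log2 time changes, vehicle minus MitoCDNB, was above 0 for Nr4a1 (5.85), Atf3 (5.15), Rasd1 (4.44), Btg2 (4.36), Apold1 (3.77), Ppp1r3g (3.22), Gadd45a (2.51), Krt23 (2.02), Wee1 (1.96), Bhlhe40 (1.78), Nfil3 (1.72), Foxo3 (1.61), Per1 (1.55), Srsf5 (0.81), Rora (0.81), Gclc (0.72), Insig1 (0.66) and Mnt (0.57). It was below 0 for Slc39a2 (-2.66), Zfp503 (-2.61), Mroh6 (-2.26), Sox18 (-2.06), Foxa2 (-2.04), Banp (-1.79) and Nr1d1 (-1.47). Those named for this difference include Apold1, an endothelial immediate early gene, at 3.77 ± 0.42 (adjusted p = 5.09e-06), with -0.08 in vehicle and -3.85 in MitoCDNB mice. Sox18, an endothelial transcription factor, was at -2.06 ± 0.20 (adjusted p = 1.79e-06), with -0.28 in vehicle and 1.79 in MitoCDNB mice. For Nr4a1, Atf3 and Btg2, immediate early genes, the vehicle changes were 0.04, -0.40 and 0.59 and did not pass, while the MitoCDNB changes were -5.81, -5.55 and -3.77.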

How the results depend on the processing

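Counts of called genes varied with the libraries, the thresholds and the tool. Against 753 called for vehicle 4 h over 1 h (413 higher, 340 lower), other scalings gave 752 (RLE) and 745 (upper quartile), voom 951, DESeq2 1093 and no count filter 594. The vehicle libraries alone gave 415 (216 higher, 199 lower), an adjusted p under 0.01 gave 255 (127, 128), and a fold change of at least 1.2 gave 68 (36, 32). Without the 1 h replicates 4 to 6 there were 177 (95, 82), without the 1 h replicates 1 to 3 309 (131, 178), within replicates 1 to 3 8 (4, 4) and within replicates 4 to 6 354 (175, 179). A term for the replicate sets gave 807. Single omissions gave 480 (without 1 h replicate 6; 500 without 1 h replicate 5) to 749 calls, 247 to 417 higher and 227 to 346 lower. Stricter thresholds lower the count by construction. Fewer libraries did not always lower it. Without vehicle replicate 1 and MitoCDNB replicate 2 of 4 h, 881 genes were called (476 higher, 405 lower). Otherwise the cause was not tested.

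The MitoCDNB time change (3940 called) gave 2439 at an adjusted p under 0.01, 1542 at a fold of at least 1.2, 2395 without the 1 h replicates 4 to 6, 1305 within replicates 1 to 3 and 2239 within 4 to 6. The difference between the time changes (563) gave 930 with voom, 231 at 0.01, 210 at a fold of at least 1.2, 150 and 275 without the 1 h replicates 4 to 6 or 1 to 3, 48 within replicates 1 to 3 and 168 within 4 to 6. Of 95 named genes called, none changed sign in any alternative, and 64 kept the call in every single omission. At the same threshold, 61 kept it in every other fit to all libraries and in that to the vehicle libraries alone. The call was lost for 28 of the 95 in the vehicle libraries alone, for 66 without the 1 h replicates 4 to 6, for 52 without the 1 h replicates 1 to 3, and for 92 and 43 within replicates 1 to 3 and 4 to 6. Of the uncalled named genes, 14 changed sign in some alternative. The replicate block gave 677 calls (366 higher, 311 lower). Same-numbered mice correlated from -0.052 to 0.188, with 2 of 6 over 0.1 and 2 of 6 best matched to their own number, so the numbers were not taken as pairs.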

Other observations

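Some families outside the lists held several called genes; they were picked after their values were seen, so their counts carry no test. Of 24 subunits of the TIM and TOM translocases, which import proteins into mitochondria, 5 rose and none fell, against 2.99% and 2.46% of all genes. Their median log2 fold change was 0.10. In MitoCDNB mice 8 of the 24 rose, against 2086 of all 13833 genes. Tomm40, the channel of the outer membrane, was at 22.1 ± 1.82 CPM at 1 h and 29 ± 2.13 CPM at 4 h (mean ± SD, n = 6 mice), log2 fold change 0.39 ± 0.06, adjusted p = 0.000671. Timm10, a small carrier of the space between the membranes, was at 8.97 ± 1.04 CPM at 1 h and 13.5 ± 1.78 CPM at 4 h (0.59 ± 0.10, adjusted p = 0.00141). The 2 times did not overlap for either gene, and both were called without the 1 h replicates 4 to 6, at Tomm40 (0.47, adjusted p = 0.00978) and Timm10 (0.58, adjusted p = 0.0265). Of 11 tubulin genes, 4 fell, against 2.46% of all genes, and none rose. Beside Tubb2a and Tubb2b these were Tubb5, at 43.8 ± 3.1 CPM at 1 h and 33.4 ± 5.72 CPM at 4 h (-0.39 ± 0.09, adjusted p = 0.0104), and Tuba4a, at 121 ± 18.2 CPM at 1 h and 92.6 ± 13 CPM at 4 h (-0.38 ± 0.10, adjusted p = 0.0231). Over time in MitoCDNB mice, 7 of the 11 fell, against 1854 of all 13833 genes. The calls of Tubb5 (-0.41, adjusted p = 0.0814) and Tuba4a (-0.25, adjusted p = 0.306) ended without the 1 h replicates 4 to 6. Of 6 Frizzled receptors, which bind WNT ligands, 3 rose, against 2.99% of all genes. Fzd6 rose from 2.14 to 3.87 CPM (0.86 ± 0.17, adjusted p = 0.00435) and was at -0.37 in MitoCDNB mice, a difference that passed (adjusted p = 0.00277). Its call ended without those libraries (0.82, adjusted p = 0.0765).

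Some single genes were picked because they were called, and how many like them did not pass was not counted. Cipc, a CLOCK-interacting repressor, rose (0.35 ± 0.09, adjusted p = 0.0257), as did Timeless (0.53 ± 0.13, adjusted p = 0.0171), while Csnk1d, the kinase that marks PER proteins for decay (-0.28 ± 0.07, adjusted p = 0.0135), Btrc, a subunit of the ligase that removes them (-0.28 ± 0.08, adjusted p = 0.0417), and Klf15, a clock-driven regulator of nitrogen and glucose metabolism (-0.75 ± 0.15, adjusted p = 0.0053), fell. None of these 5 was called without the 1 h replicates 4 to 6, with Cipc (0.31, adjusted p = 0.112), Timeless (0.46, adjusted p = 0.199), Csnk1d (-0.27, adjusted p = 0.107), Btrc (-0.34, adjusted p = 0.0852) and Klf15 (-0.68, adjusted p = 0.105). Id2, an inhibitor of bHLH factors, went from 33 to 70.6 CPM without overlap (1.10 ± 0.15, adjusted p = 0.000277) and was at 0.11 in MitoCDNB mice (adjusted p of the difference = 0.00818), and its call held without those libraries (1.13, adjusted p = 0.0101). Serpina3a had a large fold change among the called genes (4.06 ± 1.15, adjusted p = 0.0413), but its 4 h mean of 3.91 CPM rested on 22.2 CPM in 4 h replicate 6, and it was not called without those 1 h libraries (3.80, adjusted p = 0.321).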
